A study of Rattus norvegicus with 12 samples.

Results

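Stra6l and 6 other retinoid handling genes (Aldh1a1, Aldh1a2, Aldh1a3, Cyp26b1, Rarb and Rara) were followed through rat renal cortex after bromodichloromethane (BDCM), a trihalomethane formed when drinking water is chlorinated. The genes were chosen as receptor, enzymes and nuclear receptors of vitamin A metabolism with the response of these same animals to BDCM already known, so their BDCM values are given as a description and carry no test. Every probe whose transcript accession maps to 1 of the 7 symbols was taken. This gave 8 probes for 6 genes, of 61657 probes and 15284 gene symbols on the array, and no probe matched Rarb. All 8 probes passed the filter on dim signals.

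The animals were male Sprague-Dawley rats, bought at 5 weeks of age, and the renal cortex of each was hybridised to its own 1-colour Agilent array. In the experiment coded B92, 3 rats received BDCM at 200 mg/kg per day for 4 weeks and 3 received corn oil, and anaesthesia was CO2-O2. In the experiment coded B103, another 3 rats received the same BDCM dose for 4 weeks and another 3 received corn oil, and anaesthesia was isoflurane. In every group the cortex was taken 24 hours after the last dose. Values are processed signals on the log2 scale after subtraction of each array's 75th percentile, so 0 is the level of that percentile and 1 unit is a doubling. Levels of different probes are not set against each other, since probes differ in brightness.

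Vitamin A circulates as retinol bound to retinol-binding protein (Rbp4) and transthyretin (Ttr), and kidney proximal tubules retrieve filtered retinol-binding protein. Stra6 is the membrane receptor through which cells take up retinol from that protein, and Stra6l encodes a related receptor (also called RBPR2) that was described in mouse liver and intestine. Inside the cell retinol is oxidised to retinal and then, by the Aldh1a enzymes, to retinoic acid, which Cyp26 enzymes break down and which acts through the nuclear receptors Rara, Rarb and Rarg with their Rxr partners.

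Across the 12 arrays 67.4 to 72.5% of probes were well above background, and the 75th percentile ran from 1079.5 to 1476.5 intensity units. All 10 proximal tubule markers were well above background on every array. Slides and scan days were never shared between the experiments, so anaesthesia, experiment, slide and scan day cannot be told apart. Within experiments, treatment also went partly with slide and scan day. BDCM rats 1 and 3 under CO2-O2 and BDCM rat 3 under isoflurane were on slides and scan days without an oil rat. Isoflurane oil rats 1 and 2 were on a slide without a BDCM rat. Only the remaining rats allow BDCM to be compared with oil within a slide. In the authors' deposited value table the 6 CO2-O2 columns hold the values of another rat of the same group, so which CO2-O2 rat carries which number is uncertain, while its group is not in doubt. In cortex measured in bulk, fewer cells of a type and less RNA per cell cannot be told apart either.

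The promoter of Stra6l is shown because this gene carried the largest difference among the members, with 2 direct repeats found in promoters of the pathway for comparison. Sequences are from RefSeq, build GRCr8, and run 5′ to 3′ along the gene's strand. All 7 members had a promoter there, from 250 bases before to 50 after the start. The hexamer AGGTCA and its variants were searched (AGTTCA being the first, GGGTCA another and GGTTCA the last), on both strands, singly and as direct repeats spaced by 1, 2 or 5 bases, and capitals mark them. The spaced repeats contain the single hexamers.
Stra6l, chr5:64902461-64902760, plus strand: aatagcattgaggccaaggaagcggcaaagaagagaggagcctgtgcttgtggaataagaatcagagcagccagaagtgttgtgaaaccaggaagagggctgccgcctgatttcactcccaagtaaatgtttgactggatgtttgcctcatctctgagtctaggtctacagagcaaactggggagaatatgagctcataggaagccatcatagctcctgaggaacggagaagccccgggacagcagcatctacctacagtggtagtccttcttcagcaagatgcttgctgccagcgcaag
Rarb, chr15:11336396-11336441, plus strand: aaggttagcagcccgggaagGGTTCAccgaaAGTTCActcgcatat
Cyp26a1, chr1:244883710-244883766, plus strand: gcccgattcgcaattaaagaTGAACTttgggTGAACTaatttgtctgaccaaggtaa
A direct repeat spaced by 5 bases, the form best known from the Rarb promoter, was found in the windows of Rarb and of Cyp26a1, a breakdown enzyme compared below. It lay in 0.382% of the 33469 rat promoters, against 0.233% for spacing by 1 and 0.170% for spacing by 2. A single hexamer lay in 44.4% of promoters, among them those of Aldh1a1 and Rara. The windows of Stra6l, Aldh1a2, Aldh1a3 and Cyp26b1 held none of these letters.

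Stra6l, the receptor, was far higher in BDCM cortex than in oil cortex in both experiments. Under CO2-O2 its signal was -0.57, -0.24 and -0.29 in the BDCM rats, against -3.55, -4.79 and -4.80 in the oil rats. Under isoflurane it was -0.48, 0.96 and -0.32 in the BDCM rats, against -4.62, -4.23 and -5.95 in the oil rats. Every BDCM animal lay above every oil animal, and the probe was well above background on all 12 arrays. Raw processed signals were 740.4 to 2518 intensity units over the BDCM arrays of both experiments and 19.95 to 100.3 over the oil arrays.

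**Figure D1:**
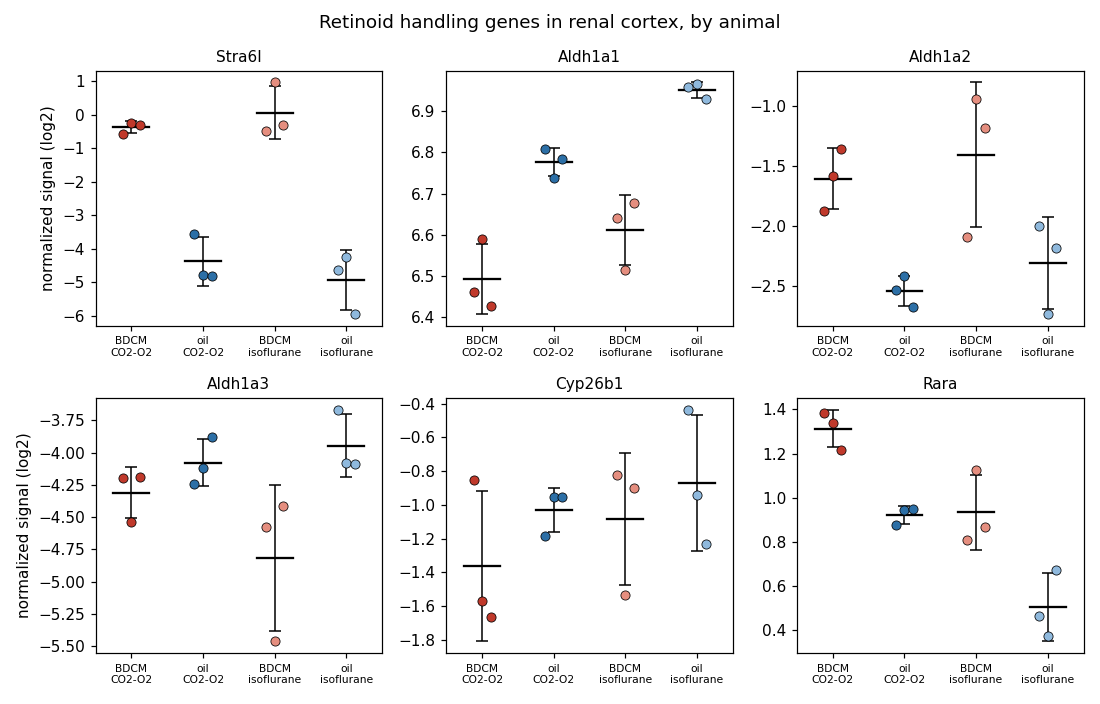
Normalized log2 signal of the 6 members with a probe (vertical axis, 1 scale per panel) in 4 groups of 3 rats: points are animals, the long line is the mean and the error bar its SD. Stra6l in BDCM cortex lay between -0.57 and 0.96, and in oil cortex between -5.95 and -3.55.

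The BDCM minus oil difference of Stra6l was 4.01 ± 0.51 (log2, SE) or 16.1-fold under CO2-O2 and 4.99 ± 0.51 or 31.8-fold under isoflurane, n = 3 rats per group. Averaged over both experiments it was 4.50 ± 0.36, or 22.6-fold, which placed Stra6l 11th from the top of 12208 named genes. Within the slide shared by 1 BDCM and 3 oil rats of the CO2-O2 experiment the difference was 4.14. Within the slide shared by 2 BDCM rats and 1 oil rat of the isoflurane experiment it was 6.19, and within their scan day, with 2 BDCM and 3 oil rats, 5.18. With slide as a fixed block the average was 5.16, and with another background correction (normexp) it was 3.32.

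Aldh1a1, a retinal dehydrogenase, was lower in BDCM cortex, by a small and even amount. The brighter of its 2 probes read 6.46, 6.59 and 6.43 in BDCM rats, against 6.81, 6.74 and 6.78 in oil rats under CO2-O2. It read 6.64, 6.51 and 6.68 in BDCM rats, against 6.96, 6.97 and 6.93 in oil rats under isoflurane. The groups did not overlap in either experiment. The mean difference was -0.31 ± 0.05 (log2, SE), and -0.34 ± 0.05 by the other probe. For the brighter probe quantile normalization gave -0.55, and the slide shared by both groups under CO2-O2 gave -0.19.

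Aldh1a2, the dehydrogenase that supplies retinoic acid in the embryo, was on average higher in BDCM cortex. Under CO2-O2 it read -1.87, -1.58 and -1.36 in BDCM rats, against -2.54, -2.42 and -2.67 in oil rats, with no overlap. Under isoflurane it read -2.09, -0.94 and -1.19 in BDCM rats, against -2.001, -2.74 and -2.19 in oil rats, where 1 BDCM animal lay below 1 oil animal. The average difference was 0.92 ± 0.20 (log2, SE), or 1.89-fold.

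Aldh1a3, the remaining dehydrogenase of this family, was near the dim end of its array. It read -4.20, -4.54 and -4.19 in BDCM rats, against -4.24, -4.12 and -3.88 in oil rats under CO2-O2, and these groups overlapped. Under isoflurane it read -4.58, -5.46 and -4.41 in BDCM rats, against -3.67, -4.08 and -4.09 in oil rats, with no overlap. The difference was -0.23 ± 0.25 under CO2-O2 and -0.87 ± 0.25 under isoflurane (log2, SE). The animal at -5.46 was not well above background, and without it the isoflurane difference was -0.55 (-0.45 with normexp and all animals).

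Cyp26b1, which breaks down retinoic acid, overlapped between BDCM and oil cortex in both experiments. It read -0.85, -1.57 and -1.67 in BDCM rats, against -1.18, -0.95 and -0.95 in oil rats under CO2-O2. Under isoflurane it read -0.82, -1.54 and -0.90 in BDCM rats, against -0.44, -0.94 and -1.23 in oil rats. The average difference was -0.27 ± 0.19 (log2, SE).

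Rara, the retinoic acid receptor alpha, was modestly higher in BDCM cortex. Its brighter probe read 1.38, 1.34 and 1.22 in BDCM rats, against 0.87, 0.94 and 0.95 in oil rats under CO2-O2. Under isoflurane it read 0.81, 1.13 and 0.86 in BDCM rats, against 0.46, 0.37 and 0.67 in oil rats. Neither experiment showed an overlap. The average difference was 0.41 ± 0.07 (log2, SE), or 1.33-fold, and 0.37 ± 0.09 by the other probe.

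Of the 6 members, Stra6l and Rara were higher and Aldh1a1 was lower in BDCM cortex without overlap in both experiments. Over all 34218 features tested, 13.5% were higher and 13.1% lower in this way. The members were chosen with this contrast known, so nothing is read from their share.

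Whether the response to BDCM differed between experiments was tested, since the choice of members did not use it. None of the 6 members passed, and the difference of effects for Stra6l, isoflurane minus CO2-O2, was 0.98 ± 0.73 (log2, SE; limma adjusted p = 0.935, 95% interval -0.64 to 2.60). That for Aldh1a3 was -0.64 ± 0.35 (limma adjusted p = 0.935, interval -1.42 to 0.15). Over the whole array the share that passed was 0%, while 1731 features (5.06%) had an unadjusted limma p under 0.05.

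The isoflurane and CO2-O2 experiments were next compared within each treatment. Rara was lower in isoflurane oil rats, with a mean of 0.50 ± 0.15, than in CO2-O2 oil rats, with 0.92 ± 0.04 (SD, n = 3 each). The difference was -0.42 ± 0.11 (limma adjusted p = 0.0319). Its mean was 0.93 ± 0.17 in isoflurane BDCM rats and 1.31 ± 0.09 in CO2-O2 BDCM rats, a difference of -0.38 ± 0.11 (limma adjusted p = 0.0353). Rara was the only member of the 6 to pass, in each case downward, where 3.56% of all features were lower and 7.53% higher in oil rats, and 5.25% lower and 11.8% higher in BDCM rats.

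The other Rara probe did not pass, at -0.24 (limma adjusted p = 0.284) in oil rats and -0.07 (0.768) in BDCM rats. The call in oil rats ended in 9 of 21 alternatives (adjusted p 0.0169 to 0.150), among them without any single oil rat of the CO2-O2 experiment or without oil rat 1 or 2 of the isoflurane experiment (0.0781 to 0.111). That in BDCM rats ended in 14 of 21 (0.0176 to 0.205), among them without any single CO2-O2 rat of either group or without BDCM rat 1 or 3 or oil rat 1 of the isoflurane experiment (0.0510 to 0.104). Stra6l did not pass in oil rats (-0.56 ± 0.51, limma adjusted p = 0.541) or in BDCM rats (0.42 ± 0.51, adjusted p = 0.609). By its brighter probe Aldh1a1 differed by 0.17 ± 0.07 in oil rats (limma adjusted p = 0.154) and by 0.12 ± 0.07 in BDCM rats (adjusted p = 0.287). Its other probe differed by 0.24 ± 0.08 in oil rats (limma adjusted p = 0.0719) and by 0.24 ± 0.08 in BDCM rats (adjusted p = 0.0533).

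These shares depend on the scaling. Of the features that passed, 67.9% were higher under isoflurane in oil rats, against 54.4% with quantile normalization and 37.5% with median scaling. In BDCM rats the shares were 69.2%, 56.0% and 44.2%. Median scaling put the median over all features in oil rats at -0.07, against 0.05. Rara differed by -0.53 in oil rats under median scaling, where its call held (limma adjusted p = 0.0169).

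To place the members in their pathway, 70 further retinoid genes were compared, of which 46 were tested, 16 had no probe and 8 were not well above background on all 3 arrays of any group. One of the 8 was Lrat, the enzyme that esterifies retinol, well above background on 1 of 3 BDCM and 2 of 3 oil arrays under CO2-O2 and on 0 of 3 BDCM and 1 of 3 oil arrays under isoflurane. On the mean of both experiments 3 rose and 15 fell under BDCM (6.52% and 32.6%), where 17.7% of all features rose and 20.4% fell. The median difference was -0.19 over the 46 genes and -0.04 over all features. No pathway gene was higher, and 11 were lower, without overlap in both experiments, where 13.5% of all features were higher and 13.1% lower in this way. Under CO2-O2 alone 1 rose and 10 fell, against 10% and 9.89% of all features, and under isoflurane alone 1 rose and 12 fell, against 13.2% and 12.9%. The CO2-O2 count of 10 was 3 when slide was a fixed block or scan day was, 5 without BDCM rat 3 or oil rat 3 and 6 without BDCM rat 2 of that experiment, and the single risen gene was lost in 15 of 25 alternatives. The isoflurane count of 12 was 3 with slide as a fixed block and 7 without oil rat 2 of that experiment.

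**Figure D2:**
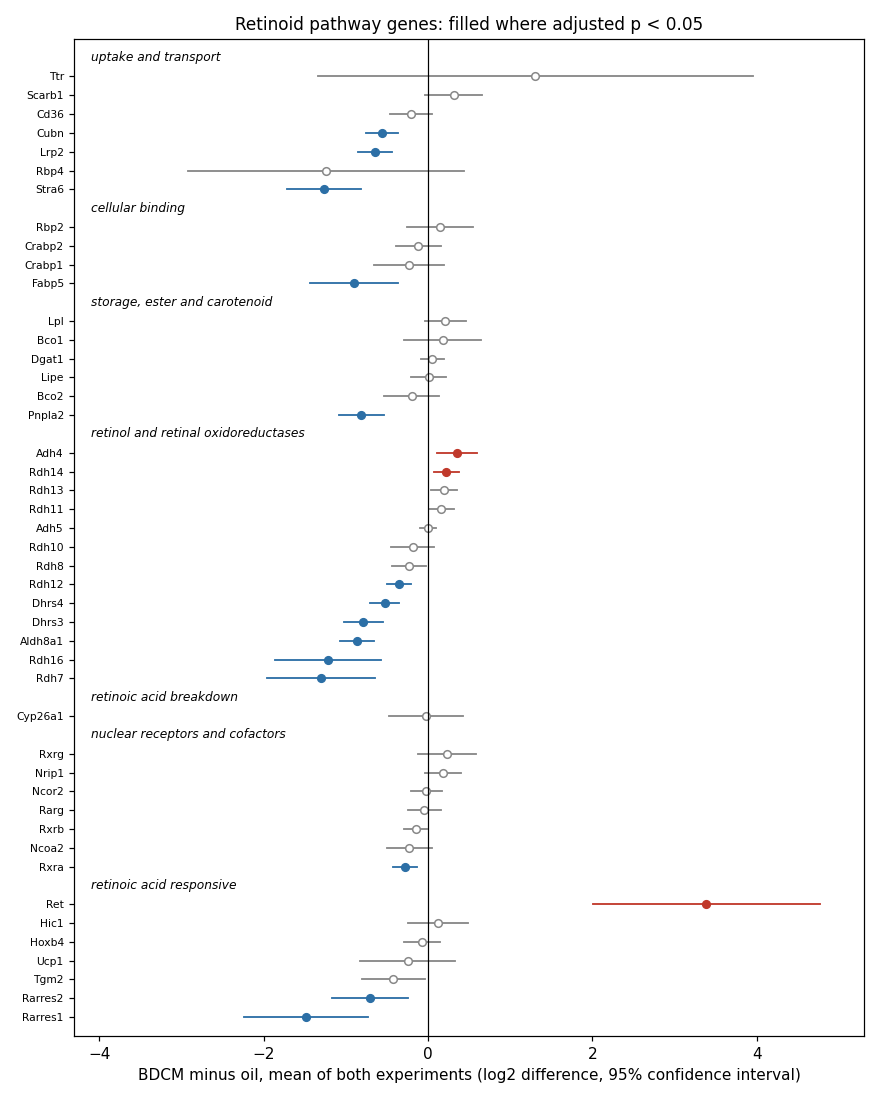
BDCM minus oil difference of 45 of the 46 retinoid pathway genes tested, averaged over both experiments (horizontal axis, log2, with 95% confidence interval), grouped by role: filled points passed an adjusted p of 0.05 (red higher, blue lower in BDCM cortex) and open points did not. Ret lay at 3.39 and Stra6 at -1.27.

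Of 7 uptake and transport genes, 3 fell and none rose, where 20.4% of all features fell and 17.7% rose. Stra6, the receptor related to Stra6l, read -0.32, -0.22 and -0.74 in BDCM rats, against 0.86, 0.99 and 1.18 in oil rats under CO2-O2. It read 0.23, -1.10 and -0.69 in BDCM rats, against 0.78, 0.53 and 0.39 in oil rats under isoflurane. Stra6 was lower in every BDCM animal of an experiment, where Stra6l was higher in every one. The difference was -1.27 ± 0.20 (limma adjusted p = 0.000895), with an adjusted p of 0.0621 when slide was a fixed block. Within the slides that held both groups Stra6 differed by -1.24 (CO2-O2) and -0.83 (isoflurane).

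Lrp2 (megalin), which with cubilin retrieves filtered retinol-binding protein, fell by 0.64 ± 0.09 (limma adjusted p = 0.000498), and Cubn (cubilin) fell by 0.56 ± 0.09 (adjusted p = 0.000725). Both are also proximal tubule markers, and all 10 markers of that list fell (median -0.73). The summed level of the 9 with a value on every array was 937.5 to 1188 in BDCM rats, against 1541 to 1657 in oil rats under CO2-O2. It was 846.8 to 1280 in BDCM rats, against 1822 to 1914 in oil rats under isoflurane (linear signal over the 75th percentile). Of 6 injured tubule markers 3 rose, with Havcr1 at 4.69 ± 0.50 (limma adjusted p = 6.92e-05), Spp1 at 3.28 and Krt18 at 0.38. Lcn2 (0.32), Krt8 (0.16) and Vcam1 (-0.24) did not pass. Of 6 podocyte markers 5 fell (median -0.41). Among 7 distal and collecting duct markers 1 rose and 2 fell, and 0 of 6 leukocyte markers passed. Over all features 17.7% rose and 20.4% fell. The part of these markers in the retinoid results was not tested.

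The carriers Rbp4 and Ttr varied too widely between animals to pass. Rbp4 read 1.43, 1.15 and 0.06 in BDCM rats, against 1.04, 3.39 and -0.32 in oil rats under CO2-O2. It read 0.09, -0.99 and -2.41 in BDCM rats, against -0.29, 2.87 and 0.08 in oil rats under isoflurane, a mean difference of -1.24 ± 0.75 (limma adjusted p = 0.223). Ttr differed by 1.31 ± 1.19 between BDCM and oil (limma adjusted p = 0.417). Ttr was lower in the isoflurane than in the CO2-O2 experiment. The difference was -6.57 ± 1.68 in oil rats (limma adjusted p = 0.0337) and -5.74 ± 1.68 in BDCM rats (adjusted p = 0.0424). Ttr was well above background on 2 of 3 isoflurane BDCM arrays and 1 of 3 isoflurane oil arrays. It thus passed the filter on dim signals only through CO2-O2 rats, where it was higher, so these calls are a description. Their size rests on dim signals under isoflurane. Over the alternatives it ran from -7.88 to -3.92 in oil rats and from -7.73 to -3.87 in BDCM rats. The call in oil rats ended in 7 of 21 alternatives (adjusted p 0.0116 to 0.164), among them without oil rat 1 or 2 of either experiment (0.102 to 0.114). That in BDCM rats ended in 13 of 21 (0.0113 to 0.194), among them without any single rat except oil rat 3 and BDCM rat 1 of the isoflurane experiment (0.0513 to 0.110).

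The hepatocyte transcript Alb, albumin, was also lower in isoflurane than in CO2-O2 BDCM rats (-5.94, limma adjusted p = 0.0336), but did not pass in oil rats (-5.33, adjusted p = 0.0639). Alb read -0.69, -5.79 and -8.07 in isoflurane BDCM rats, against 0.60, 1.19 and 1.49 in CO2-O2 BDCM rats. In oil rats it read -6.28, -5.72 and -2.97 under isoflurane, against 0.79, 1.66 and -1.44 under CO2-O2. Of 10 hepatocyte markers 6 were lower in isoflurane BDCM rats than in CO2-O2 BDCM rats, where 5.25% of all features were lower. All 10 were well above background on all 3 arrays of each CO2-O2 group. Only 6 were so in isoflurane BDCM rats and 5 in isoflurane oil rats. Markers dim under isoflurane could thus pass the filter through the CO2-O2 groups, where they were bright. The count is therefore a description, and the share of all features is not a like comparison. In oil rats 0 of the 10 passed in the same limma fit (7 had an unadjusted p under 0.05), with a median difference of -1.29 and with Apob at 0.13 and Apoc3 at 0.34. Their summed level was 14.3 to 17.0 in isoflurane BDCM rats, against 20.8 to 26.9 in CO2-O2 BDCM rats, and 13.1 to 15.0 in isoflurane oil rats, against 14.6 to 22.9 in CO2-O2 oil rats. Tf and Apoc3 made up most of this sum, and neither passed between experiments in either treatment. In BDCM rats Tf differed by -0.44 (limma adjusted p = 0.267) and Apoc3 by -0.16 (adjusted p = 0.589). The sum thus says little of Alb or of the 6 markers called lower. The part of hepatocyte transcripts in the Ttr and Rbp4 values was not tested.

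**Figure D3:**
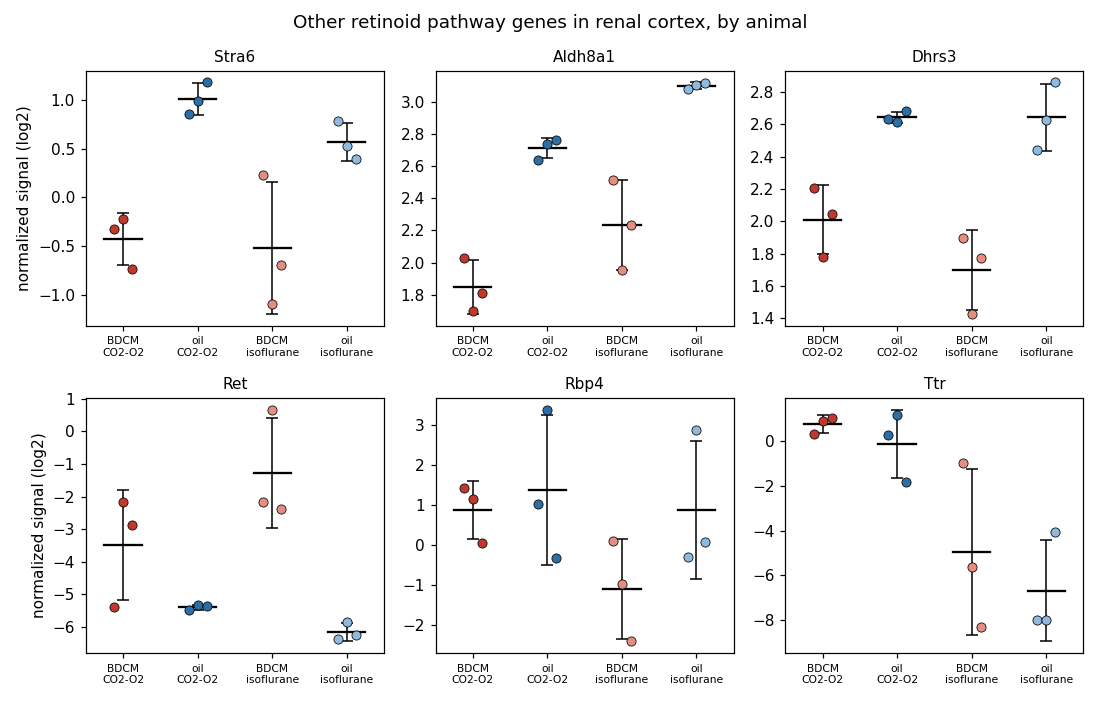
Normalized log2 signal of Stra6, Aldh8a1, Dhrs3, Ret, Rbp4 and Ttr (vertical axis, 1 scale per panel) by group: points are animals, the long line is the mean and the error bar its SD, n = 3. Stra6, Aldh8a1 and Dhrs3 were lower in every BDCM rat of an experiment, while Rbp4 and Ttr overlapped.

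Of 5 binding proteins tested, 2 fell, where 20.4% of all features fell and 17.7% rose. Rbp2, an intestinal retinol-binding protein, did not pass by its brighter probe (0.15, limma adjusted p = 0.543), while its other probe was at -0.78 (adjusted p = 0.0110). Fabp5, which carries fatty acids and retinoic acid, fell by 0.90 ± 0.24 (limma adjusted p = 0.0137), and with slide as a fixed block the adjusted p was 0.0938. Under CO2-O2 alone Fabp5 did not pass (limma adjusted p = 0.168), and its groups overlapped. Of 6 storage genes 1 fell (16.7%, against the same 20.4% of all features), the lipase Pnpla2, by 0.81 ± 0.12 (limma adjusted p = 0.000601). Lpl did not pass by its brighter probe (0.21, limma adjusted p = 0.157), while its other probe was at 0.41 (adjusted p = 0.0131).

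Of 13 retinol and retinal oxidoreductases 6 fell and 2 rose (46.2% and 15.4%), where 20.4% of all features fell and 17.7% rose. Aldh8a1, which can oxidise retinal, read 2.03, 1.70 and 1.81 in BDCM rats, against 2.64, 2.74 and 2.76 in oil rats under CO2-O2. It read 2.52, 1.96 and 2.23 in BDCM rats, against 3.08, 3.11 and 3.12 in oil rats under isoflurane, and fell by 0.87 ± 0.09 (limma adjusted p = 7.29e-05). Dhrs3, which reduces retinal back to retinol, fell by 0.79 ± 0.11 (limma adjusted p = 0.000334), and Dhrs4 fell by 0.52 ± 0.08 (adjusted p = 0.000653). Rdh16, a retinol dehydrogenase, fell by 1.21 ± 0.29 (limma adjusted p = 0.00814), and its 4 probes lay between -1.48 and -1.18. It passed in neither experiment alone (limma adjusted p = 0.0551 under CO2-O2 and 0.0614 under isoflurane).

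Rdh7, of the same enzyme family, fell by 1.30 ± 0.30 (limma adjusted p = 0.00635, and by 0.46 with normexp). Under CO2-O2 alone Rdh7 did not pass (limma adjusted p = 0.142). It was not well above background on any isoflurane BDCM array, and under isoflurane it was at least 1.84-fold lower in BDCM rats than in oil rats. Rdh12 fell by 0.35 ± 0.07 (limma adjusted p = 0.00237), but the mean of its 3 probes differed by 0.07 (adjusted p = 0.656). That mean includes dim probes, since only the probe used passed the filter on dim signals. Adh4, an alcohol dehydrogenase, rose by 0.36 ± 0.11 (limma adjusted p = 0.0263), and Rdh14 rose by 0.23 ± 0.07 (adjusted p = 0.0249). Under isoflurane alone Adh4 did not pass (limma adjusted p = 0.324). Rdh14 passed in neither experiment alone (0.0813 under CO2-O2 and 0.185 under isoflurane). The Adh4 call ended in 9 of 24 alternatives (limma adjusted p 0.0130 to 0.480), among them without BDCM rat 1 (0.0554) or oil rat 1 (0.0598) or 3 (0.0645) under CO2-O2 and without BDCM rat 3 (0.0571) or oil rat 1 (0.0613) under isoflurane. The Rdh14 call ended in 7 of 24 (0.0171 to 0.195), among them without oil rat 2 (0.0613) or 3 (0.0533) under CO2-O2 and without BDCM rat 1 (0.0536) or oil rat 1 (0.0559) under isoflurane.

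Cyp26a1, the breakdown enzyme whose repeat is shown above, differed by -0.03 ± 0.20 (limma adjusted p = 0.930). Its groups overlapped in both experiments. Of 7 nuclear receptors and cofactors 1 fell (14.3%), where 20.4% of all features fell and 17.7% rose. This was Rxra, the partner of retinoic acid receptors, which fell by 0.28 ± 0.07 (limma adjusted p = 0.00839). Under isoflurane alone Rxra did not pass (limma adjusted p = 0.121), and its groups overlapped. Rarg, another retinoic acid receptor, differed by -0.04 ± 0.09 (adjusted p = 0.739).

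Of 7 retinoic acid responsive genes 1 rose and 2 fell (14.3% and 28.6%), where 17.7% of all features rose and 20.4% fell. Ret, a receptor tyrosine kinase of the developing kidney, read -5.40, -2.18 and -2.88 in BDCM rats, against -5.48, -5.33 and -5.36 in oil rats under CO2-O2. It read -2.15, 0.67 and -2.37 in BDCM rats, against -6.38, -5.83 and -6.25 in oil rats under isoflurane, where no oil array was well above background. Ret rose by 3.39 ± 0.62 (limma adjusted p = 0.00191; 1.89 with normexp), and under isoflurane it was at least 25.0-fold higher in BDCM rats. Under CO2-O2 the lowest BDCM rat lay within the range of the oil rats, and Ret did not pass there (limma adjusted p = 0.158). Rarres1 fell by 1.48 ± 0.34 (limma adjusted p = 0.00639, and 0.118 with slide as a fixed block). Under CO2-O2 alone Rarres1 did not pass (limma adjusted p = 0.129), and its groups overlapped. Rarres2, which encodes chemerin, fell by 0.71 ± 0.21 (limma adjusted p = 0.0227, and 0.0502 without oil rat 1 of the isoflurane experiment). It passed in neither experiment alone (limma adjusted p = 0.169 under CO2-O2 and 0.0759 under isoflurane).

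Between experiments, 1 pathway gene was higher (Adh4) and 1 lower (Ttr) in isoflurane than in CO2-O2 oil rats, where 7.53% of all features were higher and 3.56% lower. The higher count ran from 0 (without oil rat 1 of the CO2-O2 experiment, or with the mean of probes) to 3 (without BDCM rat 2 of the isoflurane experiment) over the alternatives, and the lower count from 0 to 2, with Ttr lost as given above. In BDCM rats 2 were higher (Adh4 and Dgat1, an enzyme of triglyceride synthesis) and 3 lower (Ttr, Fabp5 and Rdh7), where 11.8% of all features were higher and 5.25% lower. The higher count changed in 16 of 21 alternatives (1 to 4, the highest without BDCM rat 2 of the isoflurane experiment). The lower count ran from 0 with array row as a block to 5 with median scaling, and was 1 with no filter, without any single CO2-O2 BDCM rat or without isoflurane BDCM rat 2. Of these calls in BDCM rats, Adh4 was lost in 15 of 21 alternatives, Fabp5 in 7, Rdh7 in 2 and Dgat1 in 1. No pathway gene passed the test of a different BDCM effect.

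The named genes most like Stra6l were ranked by Pearson correlation over the 12 arrays among 12207 genes. The 12 animals fall into a BDCM and an oil cluster with a gap between them, so the correlation is a description. The 4 highest were Apip at 0.987, Rps15a at 0.986, Ctsl at 0.985 and Eef1b2 at 0.985. Apip encodes an enzyme of methionine salvage, Rps15a a ribosomal protein, Ctsl the lysosomal protease cathepsin L and Eef1b2 a translation elongation factor.

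After subtraction of the group means, Ctsl correlated with Stra6l at 0.923, Apip at 0.803, Rps15a at 0.761 and Eef1b2 at 0.748. These genes were picked by a correlation over the same arrays, which already holds these deviations. High values here are thus partly set by the choice and are no separate support. Ctsl read 7.60, 7.65 and 7.62 in BDCM rats, against 7.13, 7.03 and 6.96 in oil rats under CO2-O2. It read 7.56, 7.75 and 7.45 in BDCM rats, against 7.01, 7.11 and 6.76 in oil rats under isoflurane. The isoflurane BDCM rat highest in Stra6l and the isoflurane oil rat lowest in it were also highest and lowest in Ctsl.

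The 5 lowest correlations were Mpst at -0.981, Cib2 at -0.980, Calml4 at -0.976, Lrmda at -0.974 and the proximal tubule transporter Slc13a3 at -0.972 (11 arrays, 1 value being missing). Mpst, a mitochondrial sulfurtransferase, was lower by a log2 difference of -1.03 ± 0.10 (SE). Among the members the correlation with Stra6l was -0.86 for Aldh1a1, 0.80 for Aldh1a2, -0.73 for Aldh1a3, -0.43 for Cyp26b1 and 0.65 for Rara. After subtraction of group means these were -0.12, 0.21, -0.51, -0.25 and -0.12.

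**Figure D4:**
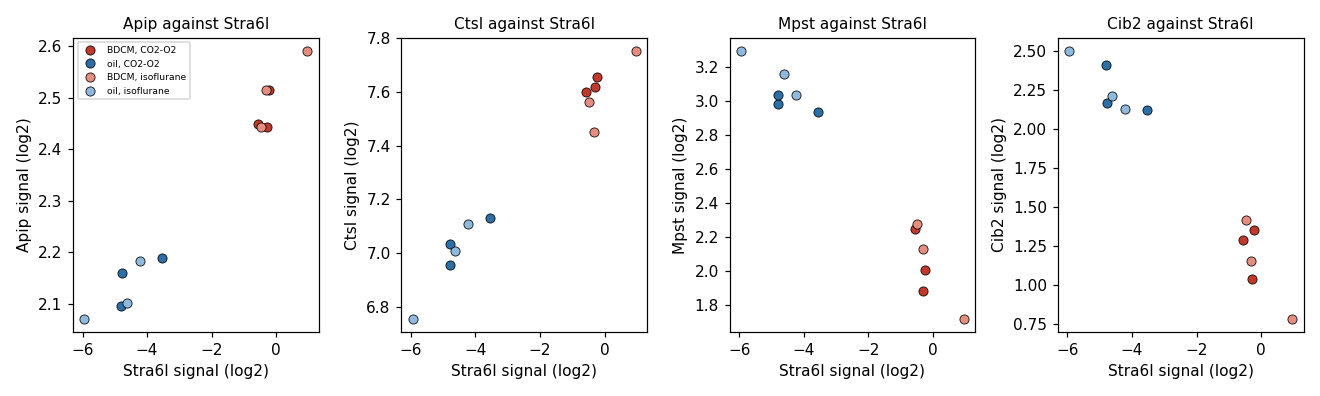
Normalized log2 signal of Apip, Ctsl, Mpst and Cib2 (vertical axes) against that of Stra6l (horizontal axis) in 12 rats, 1 point per rat, coloured by group. BDCM rats lie at the right and oil rats at the left of every panel.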

How the data were processed

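The authors deposited scanner files with intensity values, background-subtracted within each array. The submitters' processing notes name Agilent Feature Extraction 10.7 as the software, and the headers give its build as 10.7.1.1. They also deposited a value table holding the ratio of each signal to its array's 75th percentile. Its 6 isoflurane columns equal their own scanner file within 1%, and its 6 CO2-O2 columns equal another rat of the same group, so it served as an alternative only. Probe annotation refers to build rn4, per the file headers, and accessions were named through RefSeq (GRCr8).

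Control spots, 84 spike-in probes and 54 outlier values were left out. The probe of highest mean stood for a gene. Features well above background on all 3 arrays of a group were kept (34218 of 49397). limma 3.58.1 (R 4.3.3) was fitted with 1 mean per group, and adjusted p (Benjamini-Hochberg over all features, threshold 0.05) was two-sided. Steps were tested on simulated data. Figures were made in Python 3.11.15 with matplotlib 3.10.9.

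BDCM was compared with oil per experiment, as the average of both, and as the difference between both effects, and isoflurane with CO2-O2 within each treatment. A fold against a group not well above background on any array is a lower bound, with each dim signal raised to the lowest one well above background on its array. Normexp (offset 50) used median spot signals. Rats are separate animals, per the labels. Over all features, same-numbered rats of an experiment showed little shared deviation (correlations -0.02 to 0.05), and the main fit used no pairing. These correlations cannot exclude a pairing that touches few genes, and the CO2-O2 numbers are uncertain. The named genes are the members, the pathway genes that passed, fixed pathway genes (among them Rbp4, Ttr, Lrat, Cyp26a1 and Rarg) and the 5 genes at each end of the correlation with Stra6l, of which 1 pathway gene and 1 correlated gene are counted but not reported here by name. Members and lists were chosen with earlier results of these data known. Scan day and array row were added as blocks after the data were seen. Only 3 arrays per group limit the precision.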

Additional observations from a re-analysis of the deposited data

How the results depend on the processing

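Stra6l was higher in BDCM cortex under all 24 alternatives to its mean difference (3.32 to 5.16, log2). Normexp gave 3.32 on average, 2.99 under CO2-O2 and 3.66 under isoflurane, and slide as a fixed block gave 5.16 on average and 6.19 under isoflurane. With that block the CO2-O2 value rests on 1 BDCM rat and the isoflurane value on 1 oil rat. Fabp5, Stra6, Rarres1, Rarres2, Rdh14 and Adh4 lost their calls with slide as a fixed block, and Rarres2 also with array row as a block (limma adjusted p = 0.0532). The causes were not tested.

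The numbers of features that passed were 13037 for BDCM on average (8331 with slide as a fixed block), 6810 under CO2-O2 (3177 with a slide block, 4113 with a scan day block; 3899 to 7731 without 1 rat) and 8923 under isoflurane (2715 with a slide block; 5469 to 9068 without 1 rat). The CO2-O2 count was lowest without oil rat 3 and the isoflurane count without BDCM rat 2. The difference of effects gave 0 features, 18 with a slide block and 25 with a scan day block, and 0 to 4 without 1 rat. Isoflurane against CO2-O2 gave 3795 features in oil rats (2293 with array row as a block; 1592 to 4194 without 1 rat) and 5847 in BDCM rats (3878 with no filter, 3247 with array row as a block; 3620 to 5237 without 1 rat). Slide and scan day could not be blocked between experiments. Of the pathway genes 1 to 4 rose and 14 to 16 fell on average without 1 rat, the lowest count of risen genes coming without oil rat 3 of the CO2-O2 or oil rat 1 of the isoflurane experiment.

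Some values changed sign, of which Rdh12 and Adh4 were past the threshold in the fit reported. With array row as a block Stra6l differed by -0.15 between BDCM rats of the 2 experiments, and by -0.032 to 0.69 without 1 rat. Quantile normalization gave -0.0058 for Aldh1a1 in BDCM rats and -0.0035 for Aldh1a3 in oil rats, the second of which ran from -0.0085 to 0.23 without 1 rat. The difference of effects was 0.058 for Aldh1a2 with normexp (-0.27 to 0.30 without 1 rat) and -0.12 for Rara with slide as a block (-0.057 to 0.12 without 1 rat), and -0.062 to 0.38 for Cyp26b1 without 1 rat. Aldh1a2 in BDCM rats ran from -0.034 to 0.54 and Cyp26b1 in oil rats from -0.058 to 0.34 without 1 rat. The isoflurane BDCM difference of Cyp26b1 was 0.056 with slide as a block and -0.40 to 0.011 without 1 rat. The mean of probes gave -0.17 for Adh4 between experiments in oil rats (limma adjusted p = 0.732, and 0.0119 in the fit reported). For the BDCM minus oil difference it gave 0.072 for Rdh12 and 0.023 for Rarg (-0.092 to 0.028 without 1 rat). For Adh4 and Rdh12 that mean includes dim probes, since only the probe used passed the filter on dim signals. Cyp26a1 was at 0.0073 with quantile normalization, 0.0082 with median scaling, 0.0012 with normexp, 0.26 and 0.0017 with slide as a fixed and a random block, 0.19 with scan day as a block, and -0.17 to 0.097 without 1 rat.

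With the rat number as a replicate block, which marks no known pairing, 12695 features passed for BDCM on average, 6423 under CO2-O2 and 8538 under isoflurane. Both Rara calls between experiments ended with that block (limma adjusted p = 0.0578 in oil rats and 0.0587 in BDCM rats), and 3 pathway genes rose and 15 fell.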
